A study of Mus musculus with 18 samples.

Results

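The early growth response genes Egr1, Egr2 and Egr3, the genes of their corepressors Nab1 and Nab2, the NR4A nuclear receptor genes Nr4a1, Nr4a2 and Nr4a3, and the serum response factor gene Srf were followed in mouse bone marrow-derived macrophages (BMDMs) by RNA-seq. These 9 genes were matched by symbol among 50600 gene IDs of the count table, and all 9 were among the 15663 genes with enough reads to be tested. The set was chosen by the measured rise of Egr1 with defactinib in these libraries. For that reason the defactinib contrast in WT cells is given as a description with no p for any gene. Counts of its genes past the limits used elsewhere only sort the values and support nothing. Egr1 is tested only with LPS in IRF5 KO and between unstimulated genotypes. By their labels, the groups compared there hold neither defactinib nor a library of the WT defactinib contrast. Those libraries still enter the estimate of spread that all groups share. Bone marrow was cultured for 8 days in GM-CSF, starting from WT mice or from mice without IRF5, a transcription factor that acts downstream of TLR4. Cells then received either 3.5 μM defactinib, an inhibitor of the kinases PYK2 and FAK, or DMSO for 1 h, followed by 100 ng/ml LPS, the bacterial ligand of TLR4, for 2 h. There were 6 groups of 3 libraries, which in each genotype were unstimulated cells, cells with LPS and DMSO (LPS DMSO), and cells with LPS and defactinib (LPS defactinib). Unstimulated libraries are labelled as DMSO with 0 h of LPS, whereas the column names of the count table mark them as untreated. No group had defactinib without LPS. The methods name purchased male C57BL/6J mice aged 8 to 11 weeks, without saying whether the marrow came from them, and the origin of the IRF5 KO mice is not given in the sources used here. The study describes its replicates in general as biological, such as mice or cells, but nothing ties the libraries of a group to separate mice, and the p-values measure the spread between these libraries, which may be technical.

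EGR1, EGR2 and EGR3 are zinc finger transcription factors of the immediate-early class, whose genes are switched on within minutes of growth factor, stress or ERK kinase signalling without new protein synthesis. SRF, held at CArG boxes with its TCF or MRTF partners, drives much of that response, and NAB1 and NAB2 bind EGR proteins and hold them back as corepressors. The NR4A receptors are orphan nuclear receptors of the same immediate-early class, act without a known classical ligand, and in macrophages are known for restraining NF-κB-driven inflammatory genes. EGR2 is in addition known as a marker of alternatively activated macrophages.

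By Ensembl ID and mm10 position, Egr1 (ENSMUSG00000038418) lies on chromosome 18, Egr2 (ENSMUSG00000037868) at chr10:67535475-67542188, Egr3 (ENSMUSG00000033730) at chr14:70077445-70080157, Nab1 (ENSMUSG00000002881) at chr1:52457294-52500679 and Nab2 (ENSMUSG00000025402) at chr10:127660918-127668568. Nr4a1 (ENSMUSG00000023034) lies at chr15:101266846-101274792, Nr4a2 (ENSMUSG00000026826) at chr2:57106830-57124003, Nr4a3 (ENSMUSG00000028341) at chr4:48045153-48086447 and Srf (ENSMUSG00000015605) at chr17:46546839-46556162.

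The libraries held 39282181 to 61949143 counted read pairs. The libraries labelled IRF5 KO LPS DMSO replicates 1 and 2 stood apart from replicate 3 and, against their label, lay close to the defactinib libraries. Whether their labels are right could not be checked, and they are named by them throughout. Over the 15663 tested genes their median absolute log2 CPM difference from the IRF5 KO LPS defactinib mean was 0.233 and 0.236, but 0.558 and 0.554 from replicate 3, where CPM are read counts scaled to library size. Replicate 3 lay 0.535 from that defactinib mean and 0.234 from the mean of unstimulated IRF5 KO. Gm26917, a noncoding RNA, took 1.06 to 4.15% of the counts of the 6 defactinib libraries, 2.57 and 2.56% in replicates 1 and 2, and 0.0125% in replicate 3. Replicates 1 and 2 also differed less from each other than any other pair within a group (chi-square of 2.33 per gene against 3.82 to 441), but by more than sampling noise. What set them apart was not tested, and member results and counts of immediate-early genes that rest on them are given with and without them. Without them, the LPS DMSO group of IRF5 KO is replicate 3 alone, which is then assumed to vary like the other groups. Signs of RNA quality differed too, but not all in the same way. Mitochondrial transcripts took 1.05 to 1.26% of counts in WT and 0.835 to 0.926% in IRF5 KO defactinib libraries, 0.793 and 0.797% in replicates 1 and 2, 0.514% in replicate 3 and 0.671 to 0.913% in WT LPS DMSO libraries. The nuclear RNA Malat1 took 0.0294 to 0.0934% in the defactinib libraries, 0.0485 and 0.0504% in replicates 1 and 2, and 0.0125 to 0.0315% in the other 10. Neat1, another nuclear RNA, went the other way. It took 0.00681 to 0.0167%, 0.0113 and 0.0106%, and 0.0225 to 0.0556% in the same order. The 10 most abundant genes took 12.2 to 15.7% in the defactinib libraries and replicates 1 and 2, and 8.73 to 10.6% in the other 10. Their part in the differences with defactinib was not tested. Whole-gene counts of Irf5 were 335 to 435 CPM in IRF5 KO and 213 to 650 CPM in WT libraries, so they did not check the genotype.

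GM-CSF cultures are known to hold macrophages and dendritic-like cells, and markers of both were abundant. The 10 macrophage markers, led by Lyz2, Csf1r and Itgam, summed to 10008 to 19524 CPM, and the 8 dendritic cell markers, led by Cd74, H2-Ab1 and Itgax, to 10939 to 22495 CPM. The macrophage sum, most of it Lyz2, was 11070 to 15576 CPM in WT and 18645 to 19524 CPM in IRF5 KO defactinib libraries. With LPS and DMSO it was 10008 to 10566 and 10278 to 12756 CPM. With defactinib in WT 2 of the 10 macrophage markers were past the limits upwards and 2 downwards. For dendritic cells 1 and 3 of 8 were, and for mast cells and basophils 0 and 2 of 5 tested. All tested genes were at 10.4% and 18.6%, and nothing is read from these counts. In IRF5 KO 0 markers of these types were called with all libraries, beside 0.16% higher and 0.76% lower of all tested genes. The dendritic cell sum was 14749 to 15631 CPM in resting WT and 10939 to 12761 CPM in resting IRF5 KO cells. Between these groups 1 of the 8 markers was called, lower in WT, beside 3.51% of all tested genes. Mast cell and basophil markers (5 of 7 tested, led by Kit and Gata2) summed to 8.06 to 15.7 CPM in WT and 43.2 to 73.2 CPM in IRF5 KO. Of the 5, 2 were called lower in resting WT cells, beside the same 3.51%, and Fcer1a was at 0 in 3 of the 6 groups. Neutrophil markers (7 of 8 tested, led by S100a8 and S100a9) summed to 49.6 to 70.0 CPM in unstimulated and 101.7 to 196 CPM in stimulated libraries. With all libraries, 5 of 7 were called higher with LPS in WT and 3 in IRF5 KO, beside 11.6% and 7.07% of all tested genes. T, B and NK cell markers (4 of 10 tested, Ncr1 at 0 in 5 groups) summed to 0.728 to 3.44 CPM and fibroblast markers (2 of 7 tested, Col1a2 and Col3a1 at 0 in 3 and 4 groups) to 0.0530 to 7.55 CPM. The part of these cells in the results on genotype, LPS and defactinib was not tested, and in bulk RNA fewer cells of a type and less RNA per cell cannot be told apart.

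**Figure D1:**
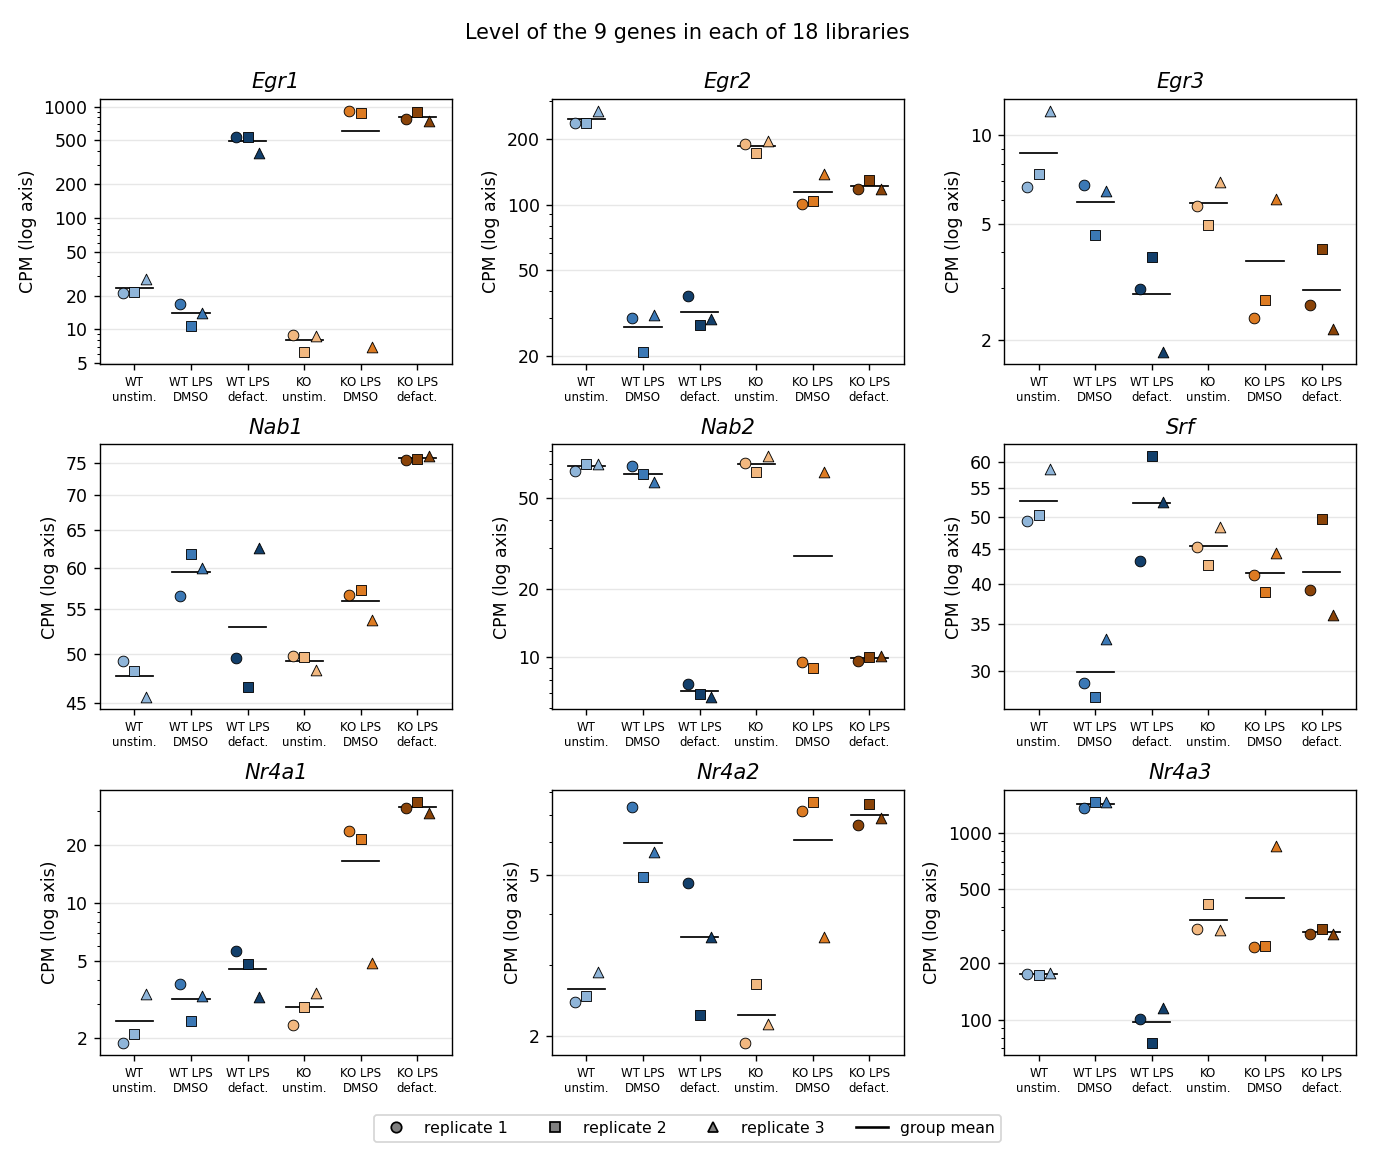
CPM of each of the 9 genes in the 18 libraries, on log axes, with 1 symbol per library and a bar at the group mean. Egr1 was at 385 CPM or more in the 6 defactinib libraries and in IRF5 KO LPS DMSO replicates 1 and 2, and at 28.5 CPM or less in the other 10, while Nab2 had the opposite order.

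The bases before the start site are shown for 4 members whose levels moved in different ways, because SRF, EGR and CREB proteins are known to act at immediate-early promoters. RefSeq windows of 250 bases (GRCm38.p6) matched 7 of the 9 members, in 11 windows, with no entry for Egr1 and Egr3. Both strands were searched for the CArG box, the SRF site, for the EGR sites GCGGGGGCG and GCGTGGGCG, for the CREB core site TGACG, which is also part of the full site TGACGTCA, and for the NR4A site AAAGGTCA. Capitals mark every match on either strand.
Egr2 (chr10:67537619-67537868, + strand): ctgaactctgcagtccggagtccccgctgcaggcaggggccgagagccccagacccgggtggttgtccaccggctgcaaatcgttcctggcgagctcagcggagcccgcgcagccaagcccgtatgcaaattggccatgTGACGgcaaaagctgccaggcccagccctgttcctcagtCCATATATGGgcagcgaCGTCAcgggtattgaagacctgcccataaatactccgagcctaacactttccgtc
Srf (chr17:46556163-46556412, - strand): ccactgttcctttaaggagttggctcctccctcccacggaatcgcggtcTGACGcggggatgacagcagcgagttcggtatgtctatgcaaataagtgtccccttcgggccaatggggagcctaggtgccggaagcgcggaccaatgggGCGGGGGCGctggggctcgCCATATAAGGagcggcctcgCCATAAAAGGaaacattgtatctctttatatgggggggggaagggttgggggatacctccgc
Nr4a1 (chr15:101266596-101266845, + strand): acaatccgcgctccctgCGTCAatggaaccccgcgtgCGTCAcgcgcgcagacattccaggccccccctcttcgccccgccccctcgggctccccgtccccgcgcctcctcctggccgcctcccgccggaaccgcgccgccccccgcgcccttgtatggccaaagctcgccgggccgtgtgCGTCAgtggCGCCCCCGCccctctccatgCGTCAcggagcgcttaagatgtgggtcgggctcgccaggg
Nr4a3 (chr4:48045055-48045304, + strand): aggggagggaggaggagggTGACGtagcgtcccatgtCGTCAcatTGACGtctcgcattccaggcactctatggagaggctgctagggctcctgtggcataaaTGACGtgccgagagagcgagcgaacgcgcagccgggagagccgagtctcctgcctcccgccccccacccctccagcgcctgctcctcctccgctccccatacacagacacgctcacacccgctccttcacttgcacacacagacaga
A CArG box stood at -72 to -63 from the start site in the Egr2 window shown, and 2 stood in the Srf window, at -82 to -73 and at -62 to -53. Egr2 had 5 windows, and their matches depended on the start site. Window 1 held no match, and window 2 held a CArG box but no TGACG. Shares of genes count a match in any window of a gene. CArG boxes were found in windows of 2 of the 7 members and of 1.62% of the 27025 genes in the table. TGACG was found 4 times in each of the Nr4a1, Nr4a2 and Nr4a3 windows, 2 times in the Egr2 window shown and 1 time each in those of Srf and Nab1. That core site was in a window of 19.8% of all genes. GCGGGGGCG lay in the windows of Nab1, Nr4a1 and Srf and of 2.93% of all genes, and GCGTGGGCG was found 2 times in that of Nab1 and in windows of 0.622% of all genes. Neither TGACGTCA, in windows of 1.77% of genes, nor AAAGGTCA, in those of 1.55%, was in a member's window, and the Nab2 window held none of the searched letters. A match describes the letters of the window and not a bound site.

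In resting WT cells the members covered a wide range of levels, compared per kilobase of exon because the genes differ in length. Egr2 was highest at 73.3 ± 5.47 CPM per kb (SD, n = 3), followed by Nr4a3 at 29.3 ± 0.386 and Nab2 at 23.3 ± 1.04. Srf at 12.9 ± 1.24 and Nab1 at 11.6 ± 0.458 CPM per kb did not separate beyond their SD. Egr3 at 6.17 ± 2.09 and Egr1 at 5.3 ± 0.912 did not separate either, and Nr4a1 (0.99 ± 0.322) and Nr4a2 (0.644 ± 0.0592) were the lowest. In resting IRF5 KO cells Nr4a3 at 56.9 ± 10.8 and Egr2 at 55 ± 3.59 CPM per kb were the highest and did not separate beyond their SD.

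In what follows a gene is called where edgeR's quasi-likelihood test gave an adjusted p below 0.05 and the change was above 2-fold, and errors of log2 changes are SE. Egr1, the founding EGR gene and the one the set was built on, was low in resting cells. WT unstimulated libraries had 21.2, 21.6 and 28.5 CPM, and IRF5 KO unstimulated libraries had 8.94, 6.29 and 8.63 CPM. The groups did not overlap, yet the log2 difference of WT minus IRF5 KO of 1.58 ± 0.88 was not called (adjusted p = 0.285). That SE is shared over all groups, and with IRF5 KO LPS DMSO replicates 1 and 2 left out the difference of 1.58 ± 0.19 was called (adjusted p = 2.05e-05), as it was in a fit of the unstimulated groups alone (adjusted p = 8.05e-05).

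LPS with DMSO left Egr1 low in WT cells, at 16.9, 10.7 and 14.2 CPM. With defactinib the WT libraries had 538, 539 and 385 CPM, a log2 difference of 5.13 from LPS with DMSO, which is the value that chose the set. In IRF5 KO cells LPS with defactinib gave 771, 896 and 747 CPM, above all WT defactinib libraries. The log2 difference from unstimulated IRF5 KO cells was 6.66, given as a description because Egr1 was picked for its rise with defactinib.

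The IRF5 KO LPS DMSO group was split in Egr1, with 916 and 885 CPM in replicates 1 and 2 and 6.99 CPM in replicate 3. The first pair was at the level of the IRF5 KO defactinib libraries, replicate 1 slightly above all of them, and replicate 3 was in the range of unstimulated cells. The fitted LPS response in IRF5 KO of 6.24 ± 1.06 (adjusted p = 0.00135) rested on that pair, and without them it was -0.17 ± 0.27 (adjusted p = 0.824). It was not called either in a fit of the 6 libraries of these groups alone (6.30, adjusted p = 0.102). Likewise the log2 difference of defactinib from DMSO in IRF5 KO was 0.42 with all libraries and 6.83 against replicate 3 alone. The log2 difference of WT from IRF5 KO after LPS with DMSO was -5.44 with all libraries and 0.97 without the pair.

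Egr2, known as a marker of alternatively activated macrophages, had its highest levels in resting cells. Unstimulated WT libraries had 237, 239 and 271 CPM, WT LPS DMSO libraries had 30.1, 20.9 and 30.8 CPM, and WT LPS defactinib libraries had 37.8, 27.8 and 29.8 CPM. Egr2 was thus about equally low after LPS with either treatment, and both stimulated groups lay wholly under the resting one. It fell by 3.19 ± 0.17 on the log2 scale with LPS in WT (adjusted p = 2.24e-09) and by 2.97 ± 0.17 with LPS and defactinib (adjusted p = 1.18e-08).

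In IRF5 KO cells Egr2 was 191, 173 and 197 CPM unstimulated, 100.1, 104 and 138 after LPS with DMSO, and 118, 130.0 and 118 after LPS with defactinib. The change with LPS in IRF5 KO was -0.71 ± 0.15 (adjusted p = 0.00424) and that with LPS and defactinib was -0.62 ± 0.15 (adjusted p = 0.00362), both under the 2-fold limit, and the first was -0.42 ± 0.18 from replicate 3 alone (adjusted p = 0.248). All stimulated WT libraries lay below all stimulated IRF5 KO libraries. The LPS response itself differed between genotypes by -2.48 ± 0.22 (WT minus IRF5 KO, adjusted p = 8.58e-06). Without IRF5 KO LPS DMSO replicates 1 and 2 that difference was -2.77 ± 0.21 (adjusted p = 6.65e-07). The difference of WT from IRF5 KO was -2.07 ± 0.16 after LPS with DMSO (adjusted p = 1.73e-07), -2.36 ± 0.16 against replicate 3 alone, and -1.94 ± 0.16 after LPS with defactinib (adjusted p = 1.83e-07).

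Egr3, whose product binds the same sites as EGR1, was at 6.69, 7.39 and 12.1 CPM in WT unstimulated, 6.75, 4.55 and 6.48 CPM in WT LPS DMSO and 2.98, 3.85 and 1.82 CPM in WT LPS defactinib libraries. The defactinib libraries lay under all others in WT. Egr3 fell with LPS and defactinib against resting WT cells (log2 change of -1.60 ± 0.37, adjusted p = 0.00247), and the log2 difference from LPS with DMSO was -1.04. In IRF5 KO cells it was 5.75, 4.93 and 6.92 CPM unstimulated and 2.63, 4.1 and 2.18 CPM with LPS and defactinib, a log2 difference of -0.98 ± 0.37 (adjusted p = 0.0348) just under the fold limit. It was called in 6 of 30 alternatives, among them library size alone (-1.34) and those without IRF5 KO unstimulated replicate 2 (-1.09) or LPS defactinib replicate 2 (-1.28). The IRF5 KO LPS DMSO libraries had 2.38, 2.73 and 6.09 CPM, with replicate 3 again near the resting level.

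Nab2, the corepressor whose gene EGR factors are known to switch on, was low in the libraries in which Egr1 was high. It was 65.0, 70.3 and 70.3 CPM in WT unstimulated and 68.6, 63.3 and 58.2 CPM in WT LPS DMSO libraries, which overlapped. WT LPS defactinib libraries had 7.67, 6.93 and 6.71 CPM, a log2 difference of -3.16 from LPS with DMSO. Against resting WT cells Nab2 fell by 3.27 ± 0.56 on the log2 scale (adjusted p = 0.000282). DESeq2 gave no adjusted p for Nab2 in any comparison, and its log2 values against resting cells were -3.25 in WT and -2.80 in IRF5 KO.

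In IRF5 KO cells Nab2 went from 70.9, 64.8 and 75.7 CPM unstimulated to 9.64, 10.03 and 10.2 CPM with LPS and defactinib, a log2 change of -2.82 ± 0.54 (adjusted p = 0.00072). The IRF5 KO LPS DMSO libraries were at 9.55, 8.99 and 64.8 CPM, split in the same way as for Egr1 with the direction turned. The LPS response of Nab2 in IRF5 KO was -1.34 ± 0.51 with all libraries (adjusted p = 0.0517, but called with library size alone, the filter at 5 CPM, limma-voom and the replicate block, at adjusted p of 0.00508 to 0.0477), -0.11 ± 0.12 from replicate 3 alone (adjusted p = 0.731) and -2.93 ± 0.11 from replicates 1 and 2 (adjusted p = 1.68e-12). Against replicate 3 alone the defactinib difference in IRF5 KO was -2.72 ± 0.11 (adjusted p = 9.69e-11), whereas with all libraries it was -1.49 ± 0.52 (adjusted p = 0.108) and was not called. Across the 18 libraries Egr1 and Nab2 therefore formed 2 separate clouds with no library between them, and no correlation is given for that reason.

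**Figure D2:**
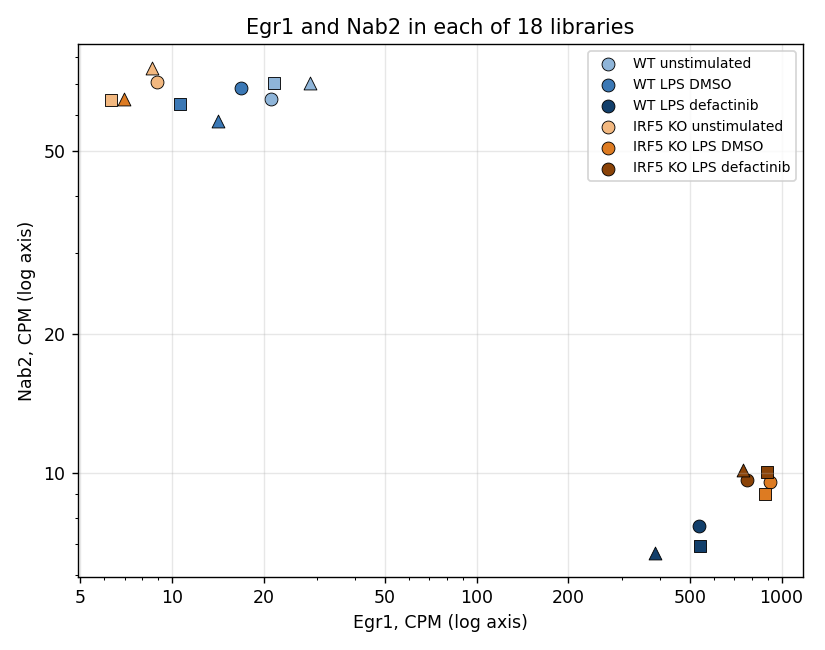
Egr1 against Nab2 in each of the 18 libraries, in CPM on log axes, coloured by group with circles, squares and triangles for replicates 1, 2 and 3. The 6 defactinib libraries and 2 IRF5 KO LPS DMSO libraries had Nab2 at 10.2 CPM or less, and the other 10 had Nab2 at 58.2 CPM or more.

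Nab1, the paralogous corepressor, varied little. Its lowest and highest values were 45.6 and 49.2 CPM in WT unstimulated, 56.5 and 61.8 in WT LPS DMSO, 46.5 and 62.6 in WT LPS defactinib, 48.3 and 49.8 in IRF5 KO unstimulated, 53.8 and 57.3 in IRF5 KO LPS DMSO, and 75.5 and 76.1 in IRF5 KO LPS defactinib libraries. The last group lay above all other libraries. Its log2 difference from unstimulated IRF5 KO cells was 0.62 ± 0.10 (adjusted p = 0.000154) and the WT minus IRF5 KO difference with LPS and defactinib was -0.52 ± 0.10 (adjusted p = 0.000511), both under the 2-fold limit. With LPS in WT Nab1 was at 0.32 ± 0.09 (adjusted p = 0.0128), but at -0.061 when scaled by library size alone, a scaling that moved the median of all tested genes in that comparison from -0.0045 to -0.38.

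Nr4a3, coding for NOR1, had the highest level per kb of the NR4A genes in all 6 groups. WT unstimulated libraries had 176, 173 and 177 CPM, and WT LPS DMSO libraries had 1362, 1465 and 1459 CPM. It rose by 3.03 ± 0.37 on the log2 scale with LPS in WT (adjusted p = 1.21e-05). With defactinib the WT libraries had 100.6, 75.3 and 115 CPM, under every resting library, at a log2 difference of -3.88 from LPS with DMSO. The difference from resting cells, -0.85 ± 0.35, was under the fold limit and not called (adjusted p = 0.0513). It was called when scaled by library size alone (-1.04, adjusted p = 0.0352). That SE is shared over all groups, the split IRF5 KO LPS DMSO group included.

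Unstimulated IRF5 KO libraries had 305, 415 and 302 CPM of Nr4a3, above all WT unstimulated ones. The log2 difference of WT minus IRF5 KO was -0.96 ± 0.35 (adjusted p = 0.0819), under the fold limit and with an SE shared in the same way. Their LPS DMSO libraries had 245, 247 and 845 CPM and their LPS defactinib libraries 289, 305 and 287 CPM. Replicate 3 was thus the only IRF5 KO library above 415 CPM. The LPS response in IRF5 KO was 0.39 ± 0.35 with all libraries (adjusted p = 0.386) and 1.33 ± 0.17 from replicate 3 alone (adjusted p = 0.000122), the only member called in that fit. Defactinib against replicate 3 alone gave -1.54 ± 0.17 (adjusted p = 2.93e-06), against -0.60 ± 0.35 with all libraries (adjusted p = 0.308). The genotype difference in the LPS response was 2.64 ± 0.50 (adjusted p = 0.00286) and 1.70 ± 0.24 without replicates 1 and 2 (adjusted p = 0.000215). With LPS and defactinib Nr4a3 was lower in WT than in IRF5 KO (log2 difference of -1.60 ± 0.36, adjusted p = 0.00254), and after LPS with DMSO it was higher in WT by 1.68 ± 0.36 (adjusted p = 0.00126), or by 0.74 ± 0.19 against replicate 3 alone (adjusted p = 0.00741), which was under the fold limit. The call after LPS with DMSO was also lost in a fit of these groups alone (1.63, adjusted p = 0.0539).

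Nr4a1, coding for NUR77, was scarce in WT cells and higher in most stimulated IRF5 KO libraries. WT libraries had 1.89, 2.1 and 3.36 CPM unstimulated, 3.83, 2.46 and 3.28 CPM after LPS with DMSO and 5.65, 4.81 and 3.26 CPM after LPS with defactinib. No WT comparison of Nr4a1 was called, and its log2 difference of LPS with defactinib from resting WT cells was 0.91 ± 0.43 (adjusted p = 0.0848). IRF5 KO libraries went from 2.32, 2.89 and 3.42 CPM unstimulated to 31.3, 33.5 and 29.3 CPM with LPS and defactinib, a rise of 3.45 ± 0.45 (adjusted p = 5.6e-05).

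Under LPS with defactinib Nr4a1 was lower in WT than in IRF5 KO by a log2 difference of -2.78 ± 0.43 (adjusted p = 0.000135), the groups not overlapping. The IRF5 KO LPS DMSO libraries had 23.6, 21.4 and 4.87 CPM. The fitted LPS response of 2.53 ± 0.43 in IRF5 KO (adjusted p = 0.00131) became 0.78 ± 0.31 from replicate 3 alone (adjusted p = 0.202), and was 2.59 (adjusted p = 0.0911) in a fit of these groups alone. The difference of WT from IRF5 KO after LPS with DMSO was -2.38 ± 0.43 (adjusted p = 0.000375), and -0.63 ± 0.31 against replicate 3 alone (adjusted p = 0.141). The genotype difference in the LPS response went likewise from -2.15 ± 0.60 (adjusted p = 0.0238) to -0.40 ± 0.40 (adjusted p = 0.618).

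Nr4a2, coding for NURR1, had the lowest mean level per kb of the members in resting cells of both genotypes. In WT it did not separate from Nr4a1 beyond their SD. It was 2.43, 2.52 and 2.89 CPM in WT unstimulated, 7.33, 4.94 and 5.69 CPM in WT LPS DMSO and 4.77, 2.26 and 3.52 CPM in WT LPS defactinib libraries. With LPS in WT it rose by 1.20 ± 0.29 on the log2 scale (adjusted p = 0.00307), the groups not overlapping, though scaling by library size alone gave 0.82, under the fold limit. IRF5 KO libraries had 1.93, 2.69 and 2.14 CPM unstimulated, 7.17, 7.56 and 3.5 CPM after LPS with DMSO, and 6.64, 7.48 and 6.88 CPM after LPS with defactinib. The rise with LPS and defactinib in IRF5 KO was 1.63 ± 0.29 (adjusted p = 0.000381). The LPS response in IRF5 KO, 1.43 ± 0.29 (adjusted p = 0.00304), was 0.65 ± 0.30 without replicates 1 and 2 (adjusted p = 0.288) and 1.48 in a fit of these groups alone (adjusted p = 0.0911). In the presence of defactinib the WT minus IRF5 KO difference was -0.99 ± 0.28 (adjusted p = 0.0124), just under the 2-fold limit and not called, though 6 of 30 alternatives called it, among them those without WT LPS defactinib replicate 1 (-1.24) or IRF5 KO LPS defactinib replicate 1 (-1.01).

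Srf, the factor of the CArG box, was not called in any comparison under the TMM scaling used throughout. WT libraries had 49.2, 50.3 and 58.5 CPM unstimulated, 28.8, 27.5 and 33.4 CPM after LPS with DMSO, and 43.2, 61.1 and 52.6 CPM after LPS with defactinib, so the LPS DMSO group lay under the other two. The LPS response in WT was -0.82 ± 0.14 (adjusted p = 0.000196), under the fold limit, and was called at -1.20 when scaled by library size alone. The log2 difference of defactinib from DMSO was 0.81. The 9 IRF5 KO libraries spanned 36.1 to 49.7 CPM, and no IRF5 KO comparison of Srf was called. The genotype difference in its LPS response was -0.69 ± 0.20 (adjusted p = 0.0249) and was not called by size.

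**Figure D3:**
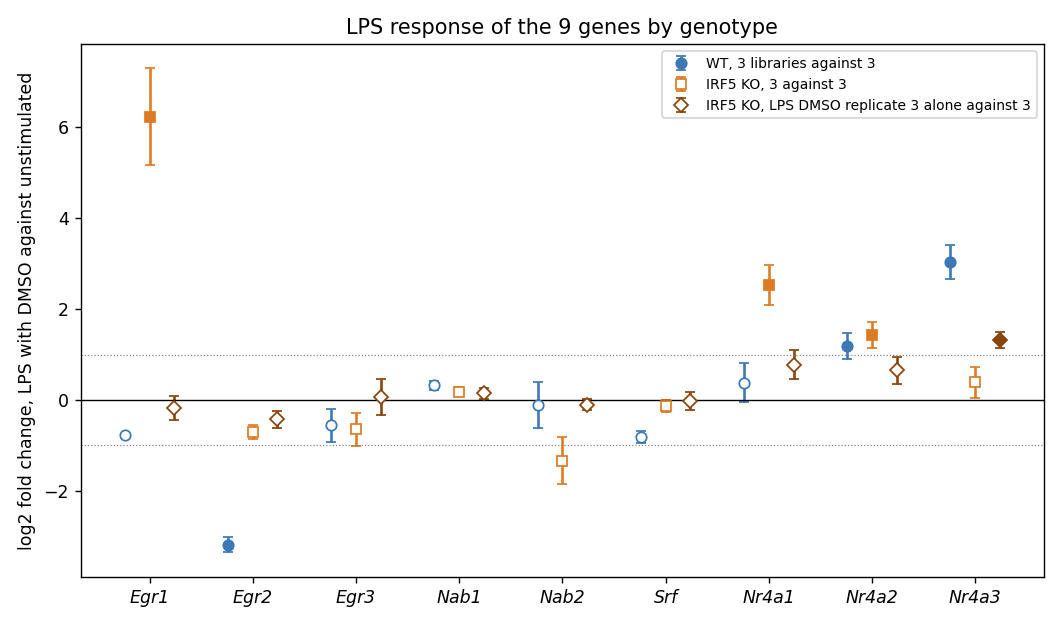
Log2 fold change of LPS with DMSO against unstimulated cells for the 9 genes in WT (circles), in IRF5 KO with all libraries (squares) and in IRF5 KO with replicate 3 as the only LPS DMSO library (diamonds), with bars of 1 SE. Filled symbols passed an adjusted p of 0.05 and a 2-fold change (dotted lines), and Egr1 in WT has no bar because it is given as a description. Egr2 fell most in WT at -3.19, and Egr1, Nr4a1 and Nr4a2 were filled in IRF5 KO only while replicates 1 and 2 were included.

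Counted together, 2 of 8 members were called higher with LPS in WT (Egr1 left out) and 1 lower, beside 11.6% and 9.71% of all tested genes. In IRF5 KO, 3 of 9 were higher with LPS and 0 lower, beside 7.07% and 6.28%. From replicate 3 alone 1 of 9 was called, beside 2.71% of the 16707 genes tested in that fit. For defactinib against DMSO in WT, 1 of 9 was past both limits upwards and 3 downwards, beside 10.4% and 18.6% of all genes, and nothing is read from this count. In IRF5 KO the same contrast called 0 of 8, beside 0.16% higher and 0.76% lower. There 3 members had an unadjusted p below 0.05 (Nab1, Nab2 and Nr4a1), beside 3657 of the 15663 tested genes, and limma-voom called 0 as well, as did DESeq2 among the 7 members for which it gave an adjusted p. Against replicate 3 alone Nr4a1 was called higher and Egr3, Nab2 and Nr4a3 lower, 4 of 8 beside 19.2% of genes.

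Between genotypes, 0 of 9 were called in resting cells by edgeR and limma-voom, and 0 by DESeq2, which gave no adjusted p for Nab2, beside 3.8% of all genes higher and 3.51% lower in WT, and Egr2 and Nr4a3 were the 2 with an unadjusted p below 0.05, beside 4131 of the 15663 tested genes. After LPS with DMSO 1 of 8 was higher in WT and 2 lower, beside 14% and 11.8%. After LPS with defactinib 0 of 8 were higher and 3 lower in WT (Egr2, Nr4a1 and Nr4a3), beside 8.45% and 8.87%. Against unstimulated cells, LPS with defactinib called 3 of 8 lower and 0 higher in WT, beside 15.8% and 9.1%. In IRF5 KO it called 2 of 8 higher and 1 lower, beside 7.85% and 16.2%, again with Egr1 left out. The LPS response differed by genotype for 3 of 8, higher in WT for 1 and lower for 2, beside 6.33% and 3.49%. Comparisons that share a group of libraries are not independent of each other.

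Other immediate-early genes were followed with a list of 50, of which 49 were tested. With LPS in WT, 14 were called higher and 9 lower, beside 11.6% and 9.71% of all tested genes, at a median log2 change of 0.17 against -0.0045 over all tested genes. Ptgs2, which codes for cyclooxygenase 2, rose by 9.35 ± 0.69 and Nfkbiz, an NF-κB cofactor gene, by 7.99 in WT, and Gadd45b, a stress response gene, rose by 3.87. Myc fell by 4.40 ± 0.41 on the log2 scale, Trib1 fell by 3.03 and Klf4, a macrophage zinc finger factor, fell by 3.02. The 3 genes of the list with the highest mean log2 CPM rose with LPS in WT too, Klf6 by 1.10, Tnfaip3, the A20 inhibitor of NF-κB, by 3.76 and Plk2 by 2.59.

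In IRF5 KO 26 of the 49 were called higher with LPS and 5 lower with all libraries, beside 7.07% and 6.28% of all tested genes. From replicate 3 alone 11 were higher and 0 lower, beside 2.71% called in either direction. In a fit of the 2 groups alone, with their 6 libraries, 9 were higher and 0 lower, beside 153 of 14149 genes called. The largest rises were those of Ptgs2 at 8.58, Nfkbiz at 8.22 and Tnfaip3 at 5.53, and the largest falls those of Dusp6 at -2.14, Klf4 at -1.43 and Myc at -1.42. From replicate 3 alone the rises were 8.76, 5.88 and 2.74, all called, whereas Dusp6 at -0.72, Klf4 at -0.65 and Myc at -0.46 were not called (adjusted p = 0.0829, 0.0872 and 0.121). Dusp6, the phosphatase gene that ERK signalling is known to switch on and whose product turns ERK off, was at 1.14 and 1.43 CPM in replicates 1 and 2 and 20.4 CPM in replicate 3.

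With defactinib in WT, the genes of the list with the largest differences upwards were Egr4, Fos and Phlda1. Fos, coding for the AP-1 subunit c-Fos, was 5.1, 4.17 and 5.92 CPM in WT LPS DMSO and 92.6, 69.9 and 53.9 CPM in WT LPS defactinib libraries. Egr4, the fourth EGR gene, was at 0.0508 to 0.179 CPM in WT LPS DMSO and 2.39 to 12.7 CPM in WT LPS defactinib libraries. Phlda1 differed by 3.11 in that contrast, whereas Dusp6 at -4.02, Bcl3 at -3.67 and Nfkbid at -2.79 had the largest differences downwards. Over the list, 12 were past the limits upwards and 22 downwards with defactinib in WT, beside 10.4% and 18.6% of all tested genes, a description from which nothing is read. Against resting IRF5 KO cells, LPS with defactinib gave log2 differences of 2.95 for Fos, 4.58 for Phlda1 and -3.89 for Dusp6, a description too because these genes were picked by their differences with defactinib. Egr4 had 0 or 1 counts in each resting library of both genotypes, and 37, 63 and 30 counts in the IRF5 KO LPS defactinib libraries, so no fold is given.

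LPS with defactinib against resting cells called 29 of the 49 higher and 7 lower in IRF5 KO, beside 7.85% and 16.2% of all tested genes, and 18 and 18 in WT, beside 9.1% and 15.8%. After LPS with defactinib 26 were lower in WT than in IRF5 KO and 3 higher, beside 8.87% and 8.45%, at a median log2 difference of -1.43 against 0.025 over all tested genes. After LPS with DMSO 18 were lower in WT and 7 higher, beside 11.8% and 14%, and without replicates 1 and 2 these counts were 8 and 11, beside 16% in either direction. In resting cells 9 were higher in WT and 0 lower, beside 3.8% and 3.51%. With defactinib in IRF5 KO 2 were higher than with DMSO and 0 lower, beside 0.16% and 0.76%. Leaving out IRF5 KO LPS DMSO replicate 1 gave 4 higher and 3 lower, beside 874 of 16051 genes called. Without replicate 2 of that group it was 3 and 3 (891 of 16050), and without replicate 3 it was 3 and 1 (233 of 16037). Leaving out WT LPS defactinib replicate 2 or 3 gave 3 and 1 (205 of 16028 and 253 of 16023). Without any 1 library with defactinib from IRF5 KO, 1 was higher and 0 lower (20 of 16041, 29 of 16035 and 21 of 16064). Against replicate 3 alone 24 were higher and 3 lower, beside 19.2% in either direction.

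**Figure D4:**
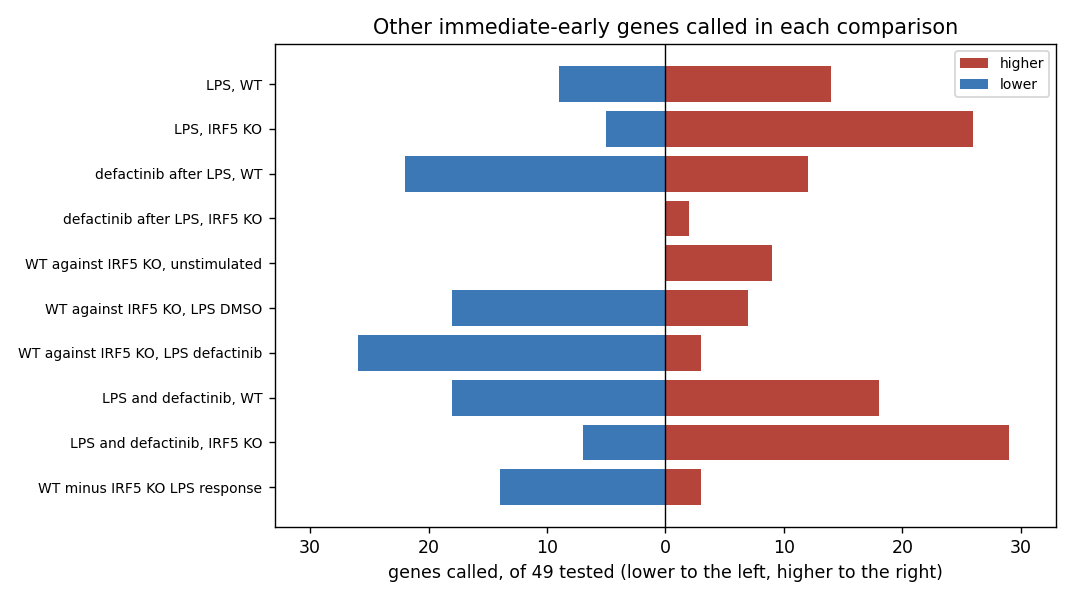
Number of the 49 tested immediate-early genes outside the set called higher (right) or lower (left) in each comparison, with all libraries. The longest bar to the left, 26 genes, is for WT against IRF5 KO after LPS with defactinib, and the longest to the right, 29 genes, for LPS and defactinib against unstimulated IRF5 KO cells.

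Genes of the machinery known to act on these members were counted for the LPS response, beside the 11.6% higher and 9.71% lower of all tested genes in WT and the 7.07% and 6.28% in IRF5 KO. Called genes named here beyond the most abundant of each list were picked after their values were seen. Of 5 tested SRF cofactor genes, which code for TCF and MRTF proteins, Mkl1 fell with LPS in WT (-1.38) and 0 were called in IRF5 KO, where Mkl1 was at -0.68 (adjusted p = 0.0378) under the fold limit, or at -0.28 from replicate 3 alone (adjusted p = 0.747). Elk4 and Mkl2 had log2 changes of 0.16 and -0.52 in WT. Of 15 tested cytoskeletal and muscle targets of SRF, 0 were called with LPS in either genotype, and Actb, Flna and Actg1 were at 0.49, 0.09 and 0.43 in WT.

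Of 13 RAF-MEK-ERK-RSK kinase genes 4 rose with LPS in WT and 1 fell. Map3k8, whose product TPL2 carries TLR signals to ERK, rose by 3.40 in WT and by 1.87 in IRF5 KO, and was the 1 gene of the list called there, at 1.62 from replicate 3 alone (adjusted p = 2.82e-06). Rps6ka2, Map2k1 and Rps6ka5 rose by 2.00, 1.22 and 1.16 in WT, and Rps6ka1 fell by 1.21. The abundant genes Mapk3 and Rps6ka3 were at 0.06 and -0.25 in WT and were not called. Of 12 genes of the CREB and CRTC arm the phosphodiesterase gene Pde4b rose in both genotypes (2.63 in WT, 2.87 in IRF5 KO). Crtc1 fell in WT (-1.70), Crtc2 rose in IRF5 KO (1.07) and was at 0.90 in WT, and Ep300 was at 0.20 in WT. Of 8 tested genes of NuRD and RXR proteins, known partners of NAB proteins and NR4A receptors, Rxra fell in WT (-1.51) and in IRF5 KO (-1.22), while Chd4, Mta2 and Hdac1 were at 0.44, -0.19 and 0.57 in WT. RNA levels of kinases and cofactors do not measure their activity, and from replicate 3 alone Pde4b at 1.28, Crtc2 at 0.65 and Rxra at -0.74 were not called in IRF5 KO (adjusted p = 0.0674, 0.0502 and 0.0251, the last under the fold limit).

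The 5 genes with the pattern most like Egr1 over the 18 libraries, by Pearson's r of log2 CPM among 8453 genes, were Clptm1l (r = 0.983), the immediate-early gene Ier2 (0.982), Tmem230 (0.98), Phlda1 (0.979) and Ppp1ca, a catalytic subunit gene of protein phosphatase 1 (0.976). Their sizes of change differed. Clptm1l had a median of 139 CPM in WT LPS DMSO and 196 CPM in WT LPS defactinib libraries, and Phlda1 had 42.8 and 403 CPM. For Nr4a3 the 5 genes were Mbp (0.98), the inhibitory receptor gene Btla (0.969), the cell cycle inhibitor gene Cdkn1b (0.966), the DNA sensor gene Cgas (0.964) and Bcl9 (0.962). With a limit of mean log2 CPM of at least 1, Sema4c was among them in place of Bcl9. The libraries are 6 groups of 3 and not independent points, so r is given as a description, and it is high for any gene that splits the libraries in the same way.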

How the data were processed

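RNA from BMDMs was sequenced as 150 bp read pairs on an Illumina HiSeq4000, which the authors mapped to mm10 with STAR and counted over genes with featureCounts 1.6.3 in the stranded setting, unique pairs only. The deposited values are raw read counts of 50600 gene IDs in 18 libraries, 3 per group. The members, the lists beside them and the tests were chosen with earlier results of these data known. Genes passing filterByExpr (15663) were normalised by TMM and fitted with edgeR 4.0.16 quasi-likelihood (robust, 6 group means over all 18 libraries), with Benjamini-Hochberg adjustment over all tested genes. CPM are TMM-scaled, and the SE is the log2 fold change over the square root of F. Egr1 was tested only in comparisons of groups labelled as without defactinib and without libraries of the WT contrast that chose it, though all libraries enter the shared dispersion. Named genes are all members, the 3 most abundant tested genes of each list, and in the immediate-early list the 3 largest rises and falls, and the 5 genes most like Egr1 and Nr4a3 by Pearson's r of log2 CPM (prior count 2). Other called genes of the shorter lists were picked after their values were seen. 1 gene that this rule names is not reported here. The fit was tested on simulated data. Alternatives were DESeq2 1.42.0, limma-voom (limma 3.58.1), other scalings, filters and thresholds, a replicate block, and leaving out libraries. Depth was 39282181 to 61949143 pairs a library. Most same-numbered libraries did not deviate together (45 pairs, median correlation 0.0046, highest 0.278, 4 pairs above 0.1).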

Additional observations from a re-analysis of the deposited data

Results flagged for a closer look

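The LPS response of 3 members differed between WT and IRF5 KO by the test of the difference itself. It was more negative in WT by a log2 difference of -2.48 for Egr2, lower in WT by a difference of -2.15 for Nr4a1, and higher in WT by 2.64 for Nr4a3. For Egr2 every one of the 30 alternatives kept the call. For Nr4a3 the call held in 29 of 30, lost only with the fold threshold inside the test (adjusted p = 0.0669). For Nr4a1 it held in 20 of 30. It was lost with limma-voom, with the fold threshold inside the test, with only the groups compared, with IRF5 KO LPS DMSO replicates 1 and 2 summed or both left out, and when any 1 of WT unstimulated replicate 3, WT LPS DMSO replicate 2, IRF5 KO unstimulated replicate 1 or IRF5 KO LPS DMSO replicate 1 or 2 was left out. The adjusted p ranged from 8.13e-06 to 0.618, and its value was -0.40 with replicate 3 as the only IRF5 KO library with LPS and DMSO.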

How the results depend on the processing

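There were 30 alternatives, 1 of them (leaving out IRF5 KO LPS DMSO replicates 1 and 2 together) chosen after seeing the data. Of 300 counts of called members under them 283 were within 1.5 times of the reported count. Without a fold threshold the count was 5 for LPS in WT, 1 for defactinib in IRF5 KO, 5 between genotypes after LPS with defactinib and 6 for LPS with defactinib against unstimulated in IRF5 KO, beside 6553, 527, 5691 and 8364 of all 15663 tested genes. With only the groups compared it was 0 for LPS in IRF5 KO (153 of 14149 genes called) and 1 between unstimulated genotypes (1397 of 14292), and with the threshold inside the test it was 1 for the genotype difference in the LPS response (108 of 15663). With replicates 1 and 2 of IRF5 KO LPS DMSO summed it was 1 for defactinib in IRF5 KO (791 of 16066). With both left out it was 1 for LPS in IRF5 KO, 4 for defactinib in IRF5 KO, 1 between unstimulated genotypes and 1 between genotypes after LPS with DMSO, beside 452, 3212, 1365 and 2665 of 16707 genes. Leaving out single libraries gave 3 to 5 for LPS in IRF5 KO and between genotypes after LPS with DMSO (5 without IRF5 KO LPS DMSO replicate 3, beside 4207 and 5538 of 16037 genes), 0 to 1 for defactinib in IRF5 KO (1 when replicate 1 or 2 of the IRF5 KO LPS DMSO group was left out, beside 874 of 16051 and 891 of 16050) and 0 to 1 between unstimulated genotypes (1 without IRF5 KO LPS DMSO replicate 3, beside 1376 of 16037). Of 300 counts of called immediate-early genes, 21 moved by over 1.5 times. With the threshold inside the test they were 18 for LPS in IRF5 KO, beside 327 of all 15663 genes. They were 0 for defactinib in IRF5 KO (0 of all genes) and between unstimulated genotypes (355). Between genotypes they were 13 after LPS with DMSO (1760) and 17 after LPS with defactinib (1037). For the genotype difference in the LPS response they were 3 (108), and 11 with limma-voom (1888). In the main fit 3 were called higher and 14 lower for that difference, beside 6.33% and 3.49% of genes.

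Among member values, 14 that had a test or were past the limits changed sign. With replicates 1 and 2 left out these were Egr1 (-0.17) and Egr3 (0.069) for LPS in IRF5 KO, Egr1 (0.97), Egr3 (-0.056) and Nab2 (-0.050) between genotypes after LPS with DMSO, and Nab2 (-0.015) in the genotype difference. Without replicate 3 the values turned for Nr4a3 with LPS in IRF5 KO (single-library range -0.47 to 0.70) and, for defactinib in IRF5 KO, for Egr3 (-0.64 to 0.22), Nab2 (-1.92 to 0.10) and Nr4a3 (-0.91 to 0.25). With library size alone Nab1 turned for LPS in WT (-0.061), LPS in IRF5 KO (-0.056), LPS with defactinib in WT (-0.033) and the genotype difference (-0.0043). Beside these 14, 2 values given as a description turned, Egr1 for defactinib in IRF5 KO without replicate 3 (-0.16) and Nab1 for defactinib in WT with library size alone (0.028). The cause was not tested, apart from the libraries left out. Of 90 member values, 21 were smaller than their SE and called under no setting, and these were not followed, a choice made after seeing the data.

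With the fold threshold inside the test, calls were lost for Nr4a2 with LPS in WT (adjusted p = 0.515) and in IRF5 KO (0.383) and for LPS with defactinib in IRF5 KO (0.0502), for Nr4a3 between genotypes after LPS with DMSO (0.0733) and with defactinib (0.16), and for Egr3 for LPS with defactinib in WT (0.121).

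No general pairing of libraries by replicate number was seen, which 3 libraries per group cannot exclude. With a replicate block 4 members were called, against 3 without it, for LPS in IRF5 KO (Nab2 added) and between genotypes after LPS with DMSO (Nab2 added) and with defactinib (Nr4a2 added). Beside them 2234, 4071 and 2671 of all 15663 tested genes were called with the block. No call was lost, and no count of members moved by over 1.5 times. DESeq2 gave no adjusted p for Nab2, so its counts are without that gene. Counts were low for Egr3 (71 to 588 per library), Nr4a2 (94 to 381) and, in WT, Nr4a1 (96 to 243).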
